A study of Homo sapiens with 24 samples.

Results

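The 30 genes described here encode the enzymes that build, convert and salvage purine and pyrimidine nucleotides, together with 1 nucleoside transporter. They were picked by gene name for the reactions they serve, though with earlier results of these data known. All 30 were found among the 58735 genes of the expression table. RNA was sequenced from Sem and Nalm6, human cell lines grown from leukaemias of B cell precursors; Sem carries a rearranged KMT2A gene, and each line stands for a single leukaemia. In each line, cells were given ibrutinib and asparaginase together (the combination), ibrutinib alone or asparaginase alone for 24 h, or were left untreated, which made 8 groups of 3 libraries. Ibrutinib, a covalent inhibitor of Bruton's tyrosine kinase, was used at 10 µM. Asparaginase, an enzyme drug that breaks down asparagine and, more slowly, glutamine, was used at 1 IU/ml by the design and the sample characteristics and at 0.5 IU/ml by the treatment protocol, and which was used is not settled by the sources. All cultures grew in RPMI medium with fetal bovine serum and antibiotics. When the untreated cells were harvested was not given, and neither was whether the 3 libraries of a group came from separate cultures, so p-values here measure only the spread between libraries.

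Purine rings are built step by step on ribose phosphate, supplied as phosphoribosyl pyrophosphate, whereas the pyrimidine ring is assembled first and attached afterwards; glutamine and aspartate give nitrogen to both. Salvage enzymes return free bases and nucleosides to the pool, and ribonucleotide reductase and thymidylate synthase supply the precursors of DNA. Dividing lymphoblasts draw on all of these routes, and several of the enzymes act on leukaemia drugs: HPRT1 activates mercaptopurine, and cytarabine enters cells through the transporter encoded by SLC29A1 and is activated by DCK.

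Levels are FPKM (fragments per kilobase of gene length, scaled to sequencing depth), with 15032818 to 18136263 reads per library and a median of 16208852, and a single read over 1 kb of gene was worth 0.0601 FPKM in the median library. The deposited values of 1 or more had lost their decimal point, which was restored from the whole-read steps of each library. All 8 markers of B cell precursors were above 1 FPKM in both lines, all 5 genes of KMT2A-rearranged leukaemia were in Sem and none in Nalm6, and CD3D and CD3E were at 0 in all libraries. Of the 5 T and NK cell markers 1, NKG7, had a median over the libraries of a line of at least 1 FPKM. The list summed to 10.5 to 13.8 FPKM with the combination, against 18.3 to 24.6 FPKM untreated, in Sem, and to 0.972 to 2.10 against 1.65 to 3.24 FPKM in Nalm6. Of the 5 myeloid markers, 1 had such a median in each line, CSF1R in Sem and LYZ in Nalm6. The myeloid list summed to 1.86 to 2.45 FPKM with the combination, against 5.04 to 6.21 FPKM untreated, in Sem, and to 7.24 to 7.88 FPKM against 12.3 to 14.5 FPKM in Nalm6. The part of either list in the results was not tested. The summed B cell precursor markers also moved, to 791 to 816 FPKM with the combination against 588 to 621 FPKM untreated in Sem, and to 1160 to 1360 FPKM against 1610 to 1770 FPKM in Nalm6. Asparaginase library 1 and combination library 1 of Nalm6 correlated less with their group than its other libraries did with each other, and counts without them are given beside those that moved.

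Untreated cells of both lines expressed nearly the whole set, led by the same 3 genes. TYMS, thymidylate synthase, averaged 200.0 ± 10.8 FPKM in Sem and 217 ± 2.15 FPKM in Nalm6 (SD, n = 3 each); 46.6% of its exon bases are shared with ENOSF1 and TYMSOS on the opposite strand, and whether counting used the strand was not stated. IMPDH2, the main inosine monophosphate dehydrogenase of proliferating cells, followed with 181 ± 6.96 FPKM in Sem and 122 ± 4.03 FPKM in Nalm6, and TK1, cytosolic thymidine kinase, with 106 ± 6.29 FPKM in Sem and 92.4 ± 8.78 FPKM in Nalm6. Below them the order was close: PAICS and APRT averaged 76.0 ± 2.16 and 74.3 ± 7.38 FPKM in Sem, within their spread. DHODH, ADSL and NME2 stayed under 5 FPKM in both lines. ADSL and NME2 share 18.9% and 22.9% of their exon bases with other genes on the same strand, so their levels are uncertain. Between the untreated lines, 9 of the 30 genes were called higher in Sem and 15 lower, where 65.8% of all 15116 genes tested were called, 34.0% higher and 31.8% lower. The 9 include PRPS2 and the 15 include CTPS2. Both were tested only through the line that expressed them, so their calls were fixed in advance and add no support. The called members apart from PRPS2 and CTPS2 differed by log2 values between -0.52 for CTPS1 and 0.90 for DTYMK, thymidylate kinase.

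In 2 pairs of related enzymes, each line lacked the transcript of one partner. PRPS2 (ENSG00000101911, chrX:12791355-12824222, GRCh38), which like PRPS1 makes phosphoribosyl pyrophosphate, had 20.3, 20.2 and 20.1 FPKM in untreated Sem libraries and no read in untreated Nalm6 libraries. Over all 12 libraries it had 9484 reads in Sem and 1 read in Nalm6, in combination library 1. With a floor of 3 reads per library, worth 0.0646 to 0.0720 FPKM, untreated PRPS2 was at least 281-fold higher in Sem. CTPS2 (ENSG00000047230, chrX:16588003-16712936), 1 of the CTP synthases, showed the opposite pattern. It had no read in any Sem library, against 4.61, 5.04 and 4.11 FPKM in untreated Nalm6 libraries, so that it was at least 124-fold lower in Sem (floor 0.0319 to 0.0369 FPKM). These 2 genes passed the filter on low values only through the line that expressed them. Their partners were present in both lines: PRPS1 averaged 44.0 ± 2.36 FPKM in Sem and 54.0 ± 1.14 FPKM in Nalm6, and CTPS1 15.2 ± 0.704 FPKM in Sem and 22.2 ± 0.667 FPKM in Nalm6. Neighbouring genes on the X chromosome, named after their values were seen, were mixed. SYAP1, beside CTPS2, averaged 4.50 ± 0.307 FPKM in Sem and 5.97 ± 0.199 FPKM in Nalm6, and MSL3, near PRPS2, 4.72 ± 0.263 FPKM in Sem and 5.11 ± 0.410 FPKM in Nalm6, whereas ARHGAP6, also near PRPS2, was at 0 in Sem and at 0.612 ± 0.0818 FPKM in Nalm6. IMPDH2 exceeded IMPDH1 by 4.78 ± 0.36 times in Sem and by 2.28 ± 0.142 times in Nalm6.

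**Figure D1:**
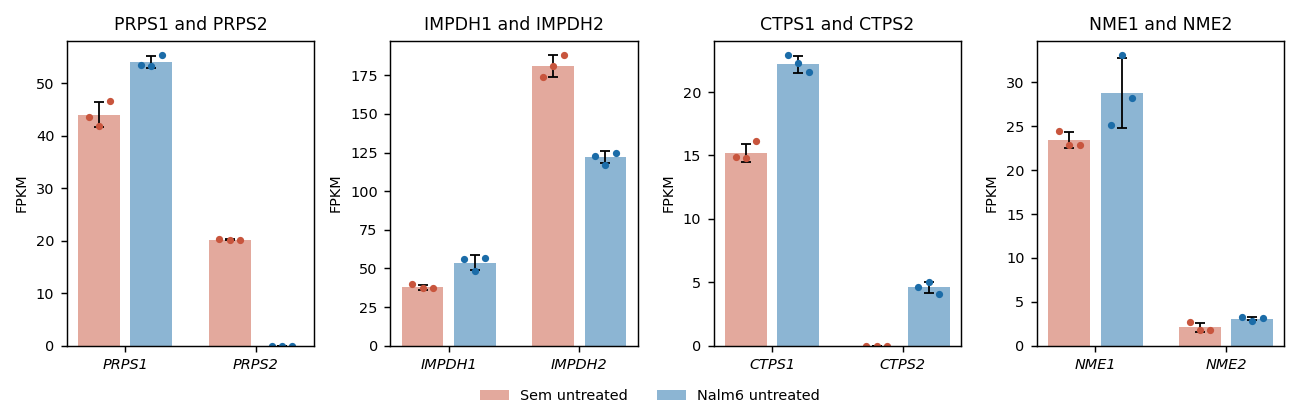
FPKM of 4 pairs of related enzymes in untreated Sem and Nalm6 cells; bars are means, error bars SD and points the 3 libraries of a group. PRPS2 was at 0 in Nalm6 and CTPS2 at 0 in Sem, while the other members of these pairs were present in both lines.

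With the combination, purine and pyrimidine genes fell almost throughout, and further in Nalm6 than in Sem. A gene was called when its adjusted p (limma, two-sided, Benjamini-Hochberg over all genes tested) was under 0.05, and log2 changes are of FPKM + 1. In Sem, 26 of the 29 genes tested were called lower with the combination than in untreated cells and none higher, where 52.9% of all 13417 genes tested were called, 26.3% lower and 26.6% higher. In Nalm6, 27 of 29 were called lower and none higher, where 31.3% of 13237 genes were called lower and 32.4% higher. The median log2 change was -0.48 over the members tested and 0.02 over all genes tested in Sem, and -0.95 over the members and 0.02 over all genes in Nalm6. At an unadjusted p under 0.05 no member was higher with the combination in either line. In bulk RNA, fewer dividing cells and less RNA per cell cannot be told apart.

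Each drug alone also lowered members without raising any, with more calls for ibrutinib in Sem and for asparaginase in Nalm6. Ibrutinib alone lowered 24 of 29 members in Sem (median log2 change -0.32; 21.3% of all genes called lower and 20.3% higher) and 10 of 29 in Nalm6 (median -0.19; 7.46% lower and 4.99% higher). Asparaginase alone lowered 17 of 29 in Sem (median -0.18; 15.1% lower and 11.4% higher) and 24 of 29 in Nalm6 (median -0.64; 28.1% lower and 28.2% higher). No member was called higher with either drug, and at an unadjusted p under 0.05 only CAD was, with asparaginase in Sem. The count of 10 for ibrutinib in Nalm6 was the least firm: it was 15 without the libraries that stood apart, and 3 to 4 when untreated library 1 or 3 or any of the ibrutinib libraries of Nalm6 was left out.

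The deposited scaling set part of this balance. Rescaling each library to a common sum (TPM) shifted the median log2 change of all genes with the combination in Nalm6 to 0.19 and with asparaginase to 0.17, against 0.02 each as deposited. The share of all genes called lower then became 20.2% (34.3% higher) with the combination in Sem and 23.1% (42.2% higher) in Nalm6. It became 15.0% (29.2% higher) with ibrutinib in Sem and 3.32% (7.92% higher) in Nalm6, and 8.56% (20.2% higher) with asparaginase in Sem and 19.3% (38.4% higher) in Nalm6. On that scale 25 members were called lower and IMPDH2 higher with the combination in Sem, and 27 lower and DCK higher in Nalm6. The members' median log2 change with the combination was then -0.41 in Sem and -0.80 in Nalm6. With ibrutinib in Sem, DCK was called higher by TPM (0.13) and by quantile normalization (0.23), which also called CMPK1 higher. With ibrutinib in Nalm6, 2 members were called by TPM and 1 by quantile normalization.

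**Figure D2:**
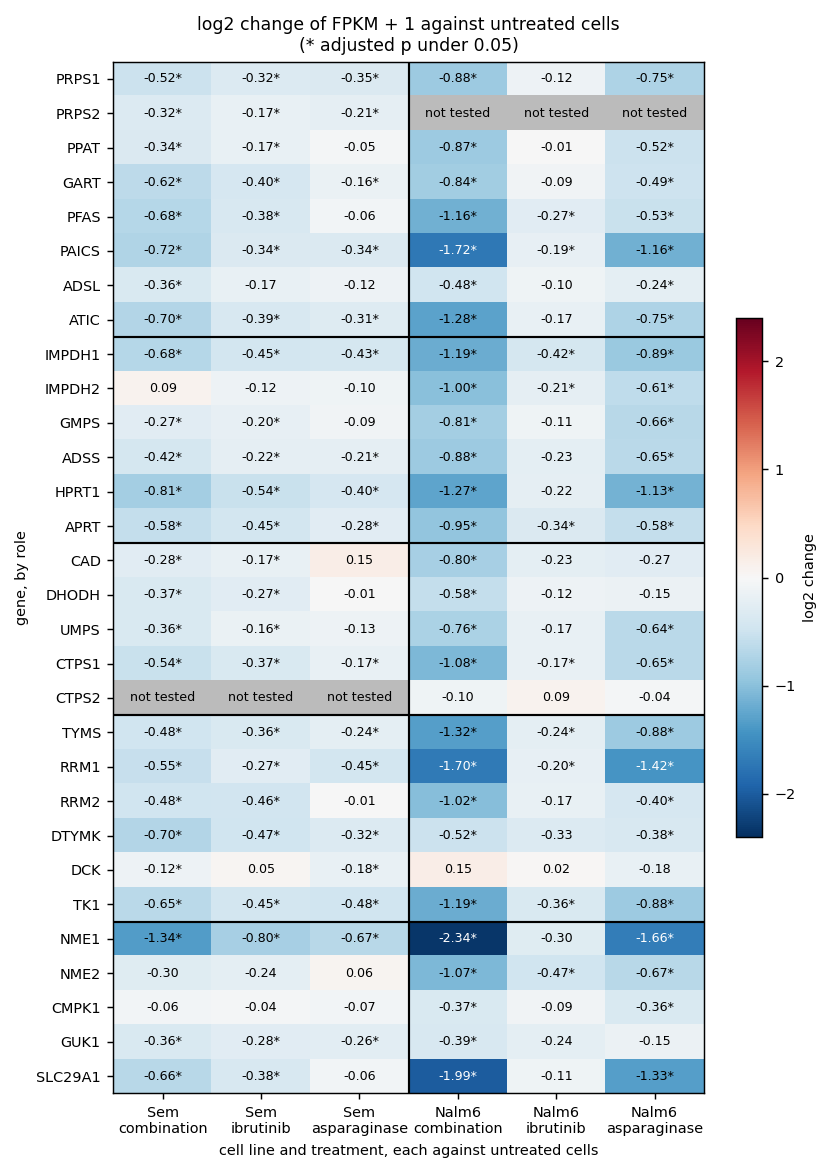
log2 change of FPKM + 1 against untreated cells for the 30 genes (rows, in 5 roles split by black lines) with the combination, ibrutinib and asparaginase in Sem (left) and Nalm6 (right); an asterisk marks an adjusted p under 0.05 and grey a gene not tested in that line. Most fields are blue, for a fall, and the darkest are NME1 and SLC29A1 with the combination in Nalm6, at -2.34 and -1.99.

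Promoter sequence was looked at because so many members moved together. RefSeq windows on GRCh38.p14, from 250 bases before to 50 after an annotated start, were found for 28 of the 30 genes (42 windows; ADSS under its newer symbol ADSS2), and none for ADSL and IMPDH2. The E-box CACGTG, the letters that MYC and related factors bind, is its own reverse complement. It occurred in 7 of the 42 member windows (16.7%) and in 2548 of all 35116 windows (7.26%). The 7 genes were PPAT, PAICS, ATIC, DHODH, DCK, NME1 and SLC29A1. PPAT and PAICS, which catalyse the first step and a later step of purine ring assembly, are transcribed away from each other and share 1 E-box. The stretches are printed from 5′ to 3′ on the gene's own strand, with the E-box in capitals:
PPAT (chr4:56435780-56435809, minus strand): aacggagatttcCACGTGcagcaaatacag
PAICS (chr4:56435780-56435801, plus strand): ctgtatttgctgCACGTGgaaa
ATIC (chr2:215312001-215312030, plus strand): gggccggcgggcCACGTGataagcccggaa
ATIC (chr2:215312076-215312105, plus strand): ctcctacctgcgCACGTGgtgccgccgctg
DHODH (chr16:72008573-72008602, plus strand): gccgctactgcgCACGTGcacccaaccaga
DCK (chr4:70993521-70993550, plus strand): cgccccggccttCACGTGacctggcgtgcg
NME1 (chr17:51153581-51153608, plus strand): agtgctgcgaacCACGTGggtcccgggc
SLC29A1 (chr6:44219365-44219387, plus strand): cagtgCACGTGctcccaggtctc

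Among the members that fell at least as far as HPRT1 with the combination in Nalm6, NME1, SLC29A1, PAICS and ATIC hold the E-box in these windows. RRM1, TYMS and HPRT1 (-1.70, -1.32 and -1.27) do not hold it. Nor do IMPDH1 (23.1 against 53.8 FPKM untreated), TK1 (39.9 against 92.4 FPKM) and PFAS (13.5 against 31.3 FPKM), which fell somewhat less. PPAT (14.6 against 27.4 FPKM) and DHODH (2.14 against 3.69 FPKM) fell less still and hold it. DCK, which was not called with the combination in Nalm6, also holds it. Whether the E-box goes with the size of the fall was not tested. The CCAAT box, sought on both strands, occurred in 12 of the 42 member windows (28.6%) and in 34.6% of all windows. Windows of GART and RRM2 held 3 copies and a window of TK1 held 2 on the other strand. The runs of RRM2 and TK1 are shown because both genes are known for expression in S phase, with CCAAT or its complement ATTGG in capitals:
RRM2 (chr2:10122609-10122683, plus strand): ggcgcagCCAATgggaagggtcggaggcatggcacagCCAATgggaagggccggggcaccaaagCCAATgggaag
TK1 (chr17:78187088-78187137, minus strand): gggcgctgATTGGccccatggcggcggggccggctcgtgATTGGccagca

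Phosphoribosyl pyrophosphate supply and the de novo purine steps (PRPS1, PRPS2, PPAT, GART, PFAS, PAICS, ADSL and ATIC) fell as a group with the combination: all 8 were called lower in Sem and all 7 tested in Nalm6, with medians of -0.57 in Sem and -0.88 in Nalm6. PAICS (ENSG00000128050, chr4:56435741-56464579), a bifunctional enzyme that adds the carboxyl carbon and aspartate to the growing ring, had 44.9, 46.1 and 46.0 FPKM with the combination, 59.2, 61.3 and 58.5 FPKM with ibrutinib and 58.7, 58.5 and 61.8 FPKM with asparaginase, against 74.8, 74.8 and 78.5 FPKM in untreated Sem libraries. In Nalm6 it had 27.8, 24.1 and 24.8 FPKM with the combination, 75.0, 75.2 and 76.6 FPKM with ibrutinib and 38.6, 38.3 and 37.6 FPKM with asparaginase, against 82.6, 88.5 and 88.5 FPKM untreated. Every treated group lay below the untreated one in both lines, and the ibrutinib and asparaginase groups overlapped in Sem but stood far apart in Nalm6. The fall with ibrutinib in Nalm6 was not firm. Its call was lost by TPM (-0.12), quantile normalization (-0.06) and limma-voom (-0.13), and without 7 of the 12 Nalm6 libraries in turn. The log2 change with the combination was -0.72 ± 0.034 in Sem (SE; adjusted p = 5.1e-08) and -1.72 ± 0.053 in Nalm6 (adjusted p = 1.2e-09).

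ATIC, which closes the purine ring, fell to 28.5 ± 0.446 FPKM with the combination, against 47.1 ± 3.23 FPKM untreated, in Sem, and to 15.5 ± 0.174 against 39.1 ± 1.21 FPKM in Nalm6. PPAT, the amidotransferase that commits the pathway, fell to 14.7 ± 0.344 against 18.9 ± 0.251 FPKM in Sem and to 14.6 ± 1.36 against 27.4 ± 0.871 FPKM in Nalm6, so that the 2 lines ended at like levels from unlike starts. PRPS2, measured in Sem alone, had 16, 15.5 and 16.3 FPKM with the combination, 17.4, 18.4 and 17.7 FPKM with ibrutinib and 18, 16.5 and 17.3 FPKM with asparaginase, against 20.3, 20.2 and 20.1 FPKM untreated. All treated libraries lay below all untreated ones, and the fall with the combination was the smallest of the role in Sem (-0.32 ± 0.038, adjusted p = 3.2e-05). The ibrutinib call of PRPS2 in Sem was lost by TPM (-0.09), quantile normalization (-0.08) and limma-voom (-0.13). ADSL, adenylosuccinate lyase, had the smallest fall of the role in Nalm6 (-0.48); 18.9% of its exon bases are shared with AL022238.4.

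The guanine and adenine branches and purine salvage (IMPDH1, IMPDH2, GMPS, ADSS, HPRT1 and APRT) fell with the combination in 5 of 6 genes in Sem and 6 of 6 in Nalm6, with medians of -0.50 in Sem and -0.98 in Nalm6. HPRT1 (ENSG00000165704, chrX:134460153-134520513), which salvages hypoxanthine and guanine, had 35.8, 34.7 and 37.8 FPKM with the combination, 42.5, 47.1 and 41.8 FPKM with ibrutinib and 47.5, 48.4 and 48.5 FPKM with asparaginase, against 60.5, 64.8 and 66.6 FPKM in untreated Sem libraries. Its levels in Nalm6 were 33.4, 28.4 and 27.3 FPKM with the combination, 59.6, 63.7 and 65.1 FPKM with ibrutinib and 34.5, 34.4 and 29.7 FPKM with asparaginase, against 71.9, 78.6 and 69.0 FPKM untreated. In Nalm6 the combination libraries overlapped those with asparaginase alone; in Sem they lay below both single drugs. The change with the combination was -0.81 ± 0.052 in Sem (adjusted p = 3.7e-07) and -1.27 ± 0.084 in Nalm6 (adjusted p = 2.2e-07).

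IMPDH2 (ENSG00000178035, chr3:49024325-49029408), which commits inosine monophosphate to guanine nucleotides, was the exception in Sem. There it had 194, 187 and 195 FPKM with the combination, 154, 179 and 167 FPKM with ibrutinib and 171, 161 and 174 FPKM with asparaginase, against 174, 181 and 188 FPKM untreated. In Nalm6 it had 61.4, 59.6 and 60.3 FPKM with the combination, 103, 105 and 108 FPKM with ibrutinib and 79.8, 80.6 and 77.5 FPKM with asparaginase, against 123, 117 and 125 FPKM untreated. All 3 treated groups were below untreated in Nalm6, without overlap, whereas in Sem each of them overlapped it. The ibrutinib call in Nalm6 was lost by TPM (-0.14) and by quantile normalization (-0.08). The change with the combination was 0.09 ± 0.054 in Sem (adjusted p = 0.19) and -1.0 ± 0.040 in Nalm6 (adjusted p = 5.4e-09). IMPDH2 in Sem was called higher on other scales (0.18 by TPM, 0.26 by quantile normalization, 0.14 by limma-voom, and 0.15 after correction for GC content and length). Its partner IMPDH1 fell in both lines with the combination, by -0.68 ± 0.050 in Sem and by -1.19 ± 0.11 in Nalm6.

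The de novo pyrimidine and CTP genes (CAD, DHODH, UMPS, CTPS1 and CTPS2) were called lower with the combination in 4 of 4 tested genes in Sem and 4 of 5 in Nalm6, with medians of -0.37 in Sem and -0.76 in Nalm6. With asparaginase alone the calls were fewer, 1 of 4 in Sem and 2 of 5 in Nalm6, where 15.1% and 28.1% of all genes were called lower. CAD, the multienzyme protein that opens the pathway, had 29.9 ± 2.42 FPKM with asparaginase, against 26.9 ± 1.54 FPKM untreated, in Sem (log2 change 0.15), and 27.7 ± 2.47 against 33.6 ± 4.48 FPKM in Nalm6 (-0.27); it was not called in either line, though in Sem it was called higher by TPM, quantile normalization and limma-voom. CTPS1 (ENSG00000171793, chr1:40979335-41012565), the CTP synthase that proliferating lymphocytes depend on, had 10.4, 9.93 and 10.1 FPKM with the combination, 11.6, 11.8 and 11.3 FPKM with ibrutinib and 13.2, 13.0 and 14 FPKM with asparaginase, against 14.9, 14.8 and 16.1 FPKM in untreated Sem libraries. Nalm6 libraries held 9.86, 10.4 and 9.84 FPKM with the combination, 20.0, 19.4 and 19.6 FPKM with ibrutinib and 14.3, 13.5 and 13.6 FPKM with asparaginase, against 22.9, 22.3 and 21.6 FPKM untreated. All treated libraries were below the untreated ones, and the 2 lines had overlapping levels with the combination after starting apart. With the combination CTPS1 changed by -0.54 ± 0.042 in Sem (adjusted p = 1.6e-06) and by -1.08 ± 0.042 in Nalm6 (adjusted p = 4.8e-09). Its ibrutinib call in Nalm6 was lost by TPM (-0.10), quantile normalization (-0.09) and limma-voom (-0.11).

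CTPS2, read in Nalm6 alone, barely moved: it had 4.02, 4.14 and 4.42 FPKM with the combination, 4.50, 5.23 and 5.05 FPKM with ibrutinib and 4.73, 4.14 and 4.43 FPKM with asparaginase, against 4.61, 5.04 and 4.11 FPKM untreated. Each treated group overlapped the untreated one, while the combination libraries lay below all ibrutinib libraries; the change with the combination was -0.10 ± 0.075 (adjusted p = 0.26). Quantile normalization gave -0.22 with an adjusted p of 0.027.

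Deoxynucleotide and thymidylate supply (TYMS, RRM1, RRM2, DTYMK, DCK and TK1) fell with the combination in 6 of 6 genes in Sem and 5 of 6 in Nalm6, with medians of -0.51 in Sem and -1.10 in Nalm6. RRM1 (ENSG00000167325, chr11:4094707-4138876), the large subunit of ribonucleotide reductase, had 39.6, 43.1 and 41.7 FPKM with the combination, 51.0, 49.3 and 51.7 FPKM with ibrutinib and 44.9, 43.2 and 45.0 FPKM with asparaginase, against 59.4, 59.1 and 64.9 FPKM in untreated Sem libraries. In Nalm6, RRM1 was at 21.0, 19.0 and 19.5 FPKM with the combination, 57.2, 57.2 and 58.8 FPKM with ibrutinib and 24.5, 24.4 and 23.7 FPKM with asparaginase, against 68.0, 63.8 and 68.1 FPKM untreated. The steep drop in Nalm6 was thus already there with asparaginase alone, while the ibrutinib libraries, though below all untreated ones, stayed much closer to them. The ibrutinib call of RRM1 in Nalm6 was lost by TPM (-0.13), quantile normalization (-0.11) and limma-voom (-0.14). The change with the combination was -0.55 ± 0.044 in Sem (adjusted p = 1.9e-06) and -1.70 ± 0.045 in Nalm6 (adjusted p = 6.7e-10).

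RRM2, the small subunit that carries the tyrosyl radical, behaved differently from RRM1 with asparaginase alone. In Sem it had 49.6, 46.6 and 49.8 FPKM with asparaginase, overlapping 47.4, 48.6 and 50.9 FPKM untreated, for a change of -0.01 ± 0.040 that quantile normalization turned to 0.11. In Nalm6 the change with asparaginase was -0.40 ± 0.076 for RRM2 and -1.42 ± 0.045 for RRM1. With the combination RRM2 was at 34.9 ± 1.28 FPKM against 49.0 ± 1.79 FPKM untreated in Sem, and at 17.5 ± 2.12 against 36.5 ± 2.39 FPKM in Nalm6; 20.2% of its exon bases are shared with AC007240.1. TYMS fell to 143 ± 1.84 FPKM with the combination, against 200.0 ± 10.8 FPKM untreated, in Sem, and to 86.5 ± 2.64 against 217 ± 2.15 FPKM in Nalm6.

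DCK (ENSG00000156136, chr4:70992538-71030914), deoxycytidine kinase, stood outside the general fall. Sem libraries had 51.0, 49.7 and 51.9 FPKM with the combination, 54.2, 59.1 and 58.8 FPKM with ibrutinib and 50.4, 46.4 and 50.1 FPKM with asparaginase, against 54.1, 54.6 and 57.8 FPKM untreated. Nalm6 libraries had 66.7, 56.5 and 56.6 FPKM with the combination, 52.8, 54.2 and 56.3 FPKM with ibrutinib and 50.6, 47.1 and 44.5 FPKM with asparaginase, against 51.0, 57.1 and 53.3 FPKM untreated. In Nalm6 the highest library was combination library 1, which stood apart from its group, and the other 2 lay within the untreated range. The change with the combination was -0.12 ± 0.046 in Sem (adjusted p = 0.039), a call lost when untreated library 2 or 3 or any combination library of Sem was left out and turned to 0.10 by quantile normalization. That call was also lost by TPM (-0.03), by limma-voom (-0.07), with no filter and with both lines in 1 fit. In Nalm6 the change with the combination was 0.15 ± 0.073 (adjusted p = 0.091). DCK was called higher there by TPM (0.33, adjusted p = 0.002), quantile normalization (0.48) and limma-voom (0.29). The same held after correction for GC content and length (0.21) and with both lines in 1 fit (0.15, adjusted p = 0.042).

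Nucleotide kinases and nucleoside transport (NME1, NME2, CMPK1, GUK1 and SLC29A1) held both the largest and some of the smallest changes: 3 of 5 genes were called lower with the combination in Sem and 5 of 5 in Nalm6, with medians of -0.36 in Sem and -1.07 in Nalm6. NME1 (ENSG00000239672, chr17:51153536-51162428), a nucleoside diphosphate kinase, had 7.98, 8.65 and 9.34 FPKM with the combination, 12.6, 13.4 and 13.0 FPKM with ibrutinib and 14.8, 13.8 and 14.7 FPKM with asparaginase, against 24.5, 22.9 and 22.9 FPKM in untreated Sem libraries. Across Nalm6 libraries NME1 was at 5.29, 5.08 and 4.21 FPKM with the combination, 20.5, 22.6 and 26.4 FPKM with ibrutinib and 9.69, 7.58 and 7.91 FPKM with asparaginase, against 25.1, 33.1 and 28.2 FPKM untreated. The ibrutinib group overlapped the untreated one in Nalm6 and not in Sem; the other treated groups lay below untreated in both lines. NME1 changed with the combination by -1.34 ± 0.054 in Sem (adjusted p = 1.6e-08) and by -2.34 ± 0.13 in Nalm6 (adjusted p = 4.6e-08), the largest fall of the 30 genes in each line. NME1 and NME2 share 18.6% and 22.9% of their exon bases with the readthrough gene NME1-NME2, which was at 0 to 0.312 FPKM, so their split is uncertain.

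SLC29A1 (ENSG00000112759, chr6:44219505-44234151), the equilibrative nucleoside transporter ENT1, had 16.9, 16 and 15.6 FPKM with the combination, 20.1, 19.5 and 19.7 FPKM with ibrutinib and 24.8, 25.4 and 24.7 FPKM with asparaginase, against 24.7, 27.4 and 26.2 FPKM in untreated Sem libraries. In Nalm6 libraries the transporter was at 6.37, 7.0 and 7.13 FPKM with the combination, 28.0, 27.7 and 27.8 FPKM with ibrutinib and 11.2, 11.2 and 11.7 FPKM with asparaginase, against 30.2, 29.3 and 30.9 FPKM untreated. Asparaginase libraries overlapped untreated ones in Sem and were far below them in Nalm6. The change with the combination was -0.66 ± 0.042 in Sem (adjusted p = 3.5e-07) and -1.99 ± 0.046 in Nalm6 (adjusted p = 3.5e-10). CMPK1 (ENSG00000162368, chr1:47333797-47378839), which phosphorylates UMP and CMP, stayed nearly level in Sem. It had 50.2, 49.3 and 51.2 FPKM with the combination, against 52.6, 52.2 and 52.1 FPKM untreated, in Sem, and 41.9, 37.6 and 36.2 FPKM against 48.3, 51.0 and 51.3 FPKM in Nalm6. Its change of -0.06 ± 0.033 in Sem was not called (adjusted p = 0.17) and was 0.16 by quantile normalization, while in Nalm6 it fell by 0.37 ± 0.054 (adjusted p = 0.0001), a call lost by quantile normalization (-0.06).

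**Figure D3:**
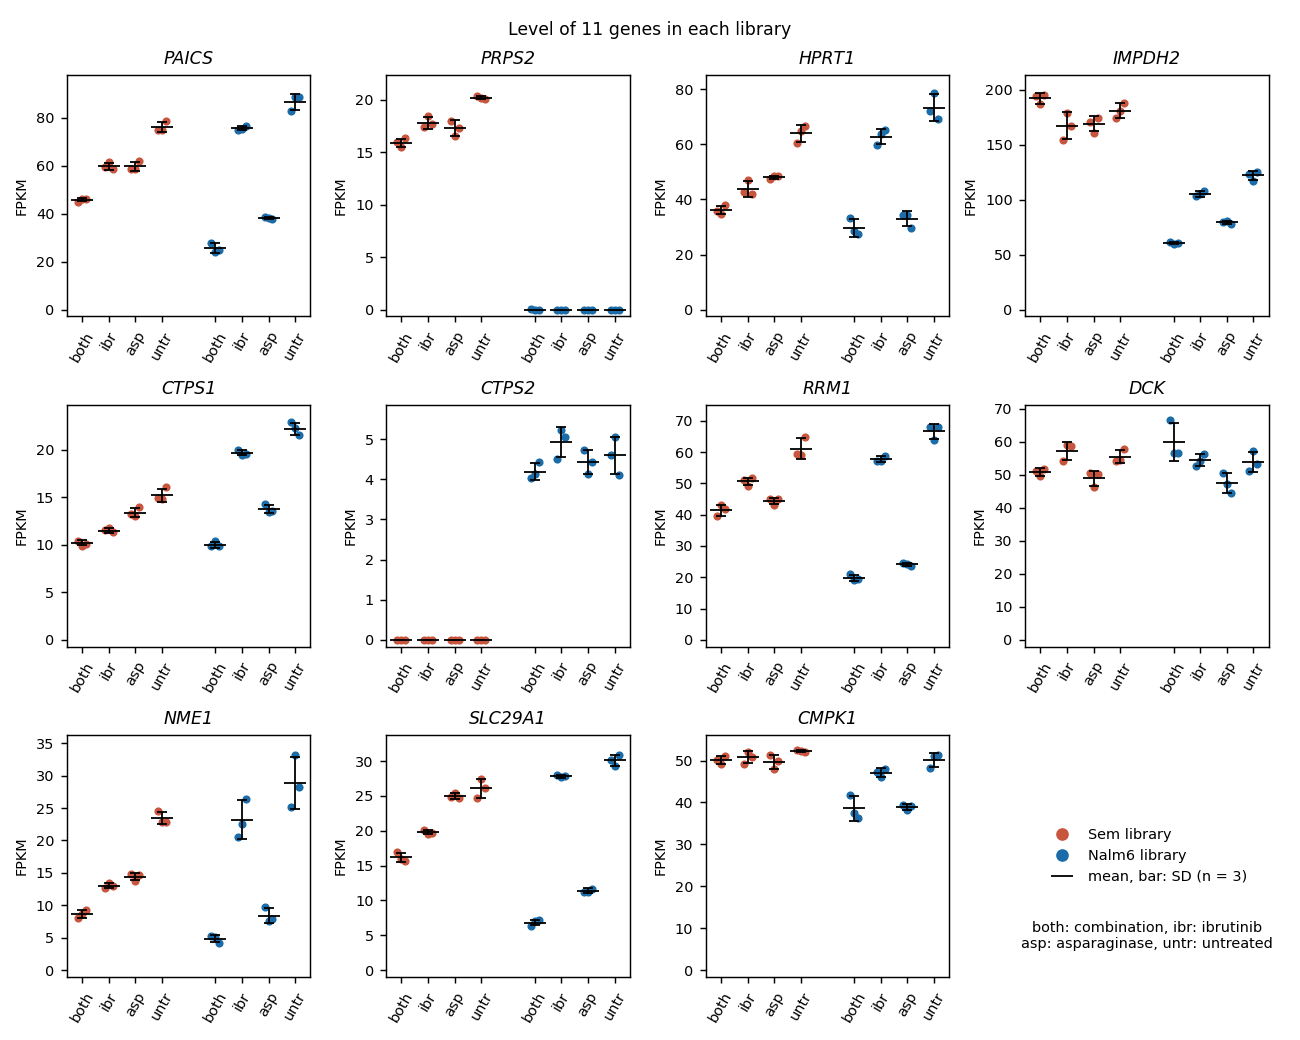
FPKM of 11 genes in each library (points) with the group mean and SD (black), for the combination, ibrutinib, asparaginase and untreated cells of Sem (red) and Nalm6 (blue). NME1, SLC29A1, PAICS and RRM1 drop steeply with asparaginase and with the combination in Nalm6, whereas IMPDH2 in Sem and DCK in both lines stay near their untreated level.

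Genes whose enzymes take nitrogen from glutamine (PPAT, PFAS, GMPS, CAD, CTPS1 and CTPS2) were called lower with asparaginase in 1 of 5 tested in Sem (median -0.06) and in 4 of 6 in Nalm6 (median -0.53). Those whose enzymes take aspartate (PAICS, ADSS and CAD) were called lower in 2 of 3 in Sem (median -0.21) and 2 of 3 in Nalm6 (median -0.65). The medians over the 29 members tested in each line were -0.18 in Sem and -0.64 in Nalm6. Over all genes tested 15.1% were called lower with asparaginase in Sem and 28.1% in Nalm6. The glutamine count in Sem was thus near the share of all genes. The 1 gene called there was CTPS1, a call lost by TPM (-0.09), and CAD was called higher by TPM, quantile normalization and limma-voom.

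Whether a second drug added to the first was asked by setting the combination against each drug alone. Against asparaginase alone, 24 of 29 members were called lower and 1 higher in Sem (19.8% of all genes lower, 18.6% higher), and 19 lower and 1 higher in Nalm6 (12% lower, 9.80% higher). Against ibrutinib alone, 17 were called lower and 1 higher in Sem (7.30% lower, 4.81% higher), and 25 lower and none higher in Nalm6 (27.7% lower, 29.5% higher; by TPM 2957 genes lower and 4793 higher). The Sem count against ibrutinib was 11 in all without combination library 2. The 1 higher gene in Sem was IMPDH2 in both comparisons, by 0.19 ± 0.054 over asparaginase (adjusted p = 0.017) and by 0.21 ± 0.054 over ibrutinib (adjusted p = 0.03), and its 3 combination libraries lay above all of those with a single drug. The 1 higher gene in Nalm6 was DCK over asparaginase (0.33 ± 0.073, adjusted p = 0.0083), again without overlap. A further fall did not pass the test for HPRT1 in Nalm6, at 29.7 ± 3.26 FPKM with the combination against 32.9 ± 2.72 FPKM with asparaginase (adjusted p = 0.27).

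Additivity was tested by subtracting both single-drug changes from that of the combination, and the departure was called in 7 of 29 members in Nalm6 and in none in Sem. Among all genes 5.58% were called in Nalm6, 2.59% below and 2.99% above additivity, and 0.775% below and 0.760% above in Sem. By TPM the split over all genes was 477 below and 255 above in Nalm6 and 348 below and 68 above in Sem. All 7 in Nalm6 (SLC29A1, RRM2, PAICS, ATIC, PPAT, GART and CTPS1) fell further than the sum, and 4 of them serve the de novo purine pathway. SLC29A1 led with -0.55 ± 0.065 (adjusted p = 0.0011), followed by RRM2 with -0.45 ± 0.11 (adjusted p = 0.036) and PAICS with -0.37 ± 0.075 (adjusted p = 0.018). The count was 3 to 4 when any single Nalm6 library was left out apart from untreated library 1 and combination library 1, and 7 without both libraries that stood apart; CTPS1 was no longer called then (-0.22). In Sem, limma called no member. At an unadjusted p under 0.05, 5 members were above and 4 below additivity. The share of all genes at that unadjusted bound is not given here, so no excess among the members can be read from these counts. Limma-voom on recovered reads called 2 members above and 3 below in Sem, and over all genes 200 above and 451 below. Among the members in Sem, IMPDH2 had the largest value, 0.31 ± 0.076 (adjusted p = 0.076 by limma and 0.0091 by limma-voom). SLC29A1 in Sem was at -0.22 ± 0.059 (adjusted p = 0.1; 0.039 by limma-voom).

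Tested directly, the 2 lines differed in the size of the response for most members. For asparaginase, the change in Sem minus the change in Nalm6 was called above 0 in 22 of 30 genes and below 0 in 1 (33.5% of all genes called, 17.7% above and 15.7% below), with a median of 0.44 over the members and -0.01 over all genes. The same difference for the combination was called above 0 in 23 and below 0 in 2 (40.8% of all genes called, 22.2% above and 18.6% below; median 0.49, against 0.02 over all genes). A positive difference means a smaller fall in Sem, except for genes with no fall there, such as IMPDH2 with the combination (0.09) and CAD with asparaginase (0.15), neither of them called. The largest was that of SLC29A1, 1.27 ± 0.058 for asparaginase (adjusted p = 1.3e-11) and 1.34 ± 0.058 for the combination (adjusted p = 3.2e-12). RRM1 differed by 0.97 ± 0.061 for asparaginase and 1.15 ± 0.061 for the combination, and IMPDH2 reached 1.09 ± 0.065 for the combination. NME1 differed by 1.00 ± 0.14 for each of these treatments, and PAICS by 0.82 ± 0.061 for asparaginase and 1.00 ± 0.061 for the combination. The genes below 0 were PRPS2, which Nalm6 does not express, so that its difference repeats the change in Sem, and for the combination also DCK (-0.28 ± 0.087, adjusted p = 0.016).

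For ibrutinib the difference was below 0 in all 8 genes called (13.7% of all genes called, 6.09% below and 7.56% above). HPRT1, RRM2, ATIC, GART, SLC29A1, NME1 and CTPS1 fell further in Sem, and the 8th was PRPS2, whose difference again only repeats the change in Sem because Nalm6 has no reads of it in these groups. NME1 differed by -0.50 ± 0.14 (adjusted p = 0.023), HPRT1 by -0.32 ± 0.10 (adjusted p = 0.043) and SLC29A1 by -0.27 ± 0.058 (adjusted p = 0.0038). This count was 11 without the libraries that stood apart, and 3 to 5 when untreated library 1 or 3 or ibrutinib library 2 or 3 of Nalm6, or untreated library 3 or ibrutinib library 1 or 3 of Sem, was left out. DHODH, ADSL, GUK1 and DTYMK, all called lower with the combination in both lines, showed no called difference between the lines for any treatment.

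**Figure D4:**
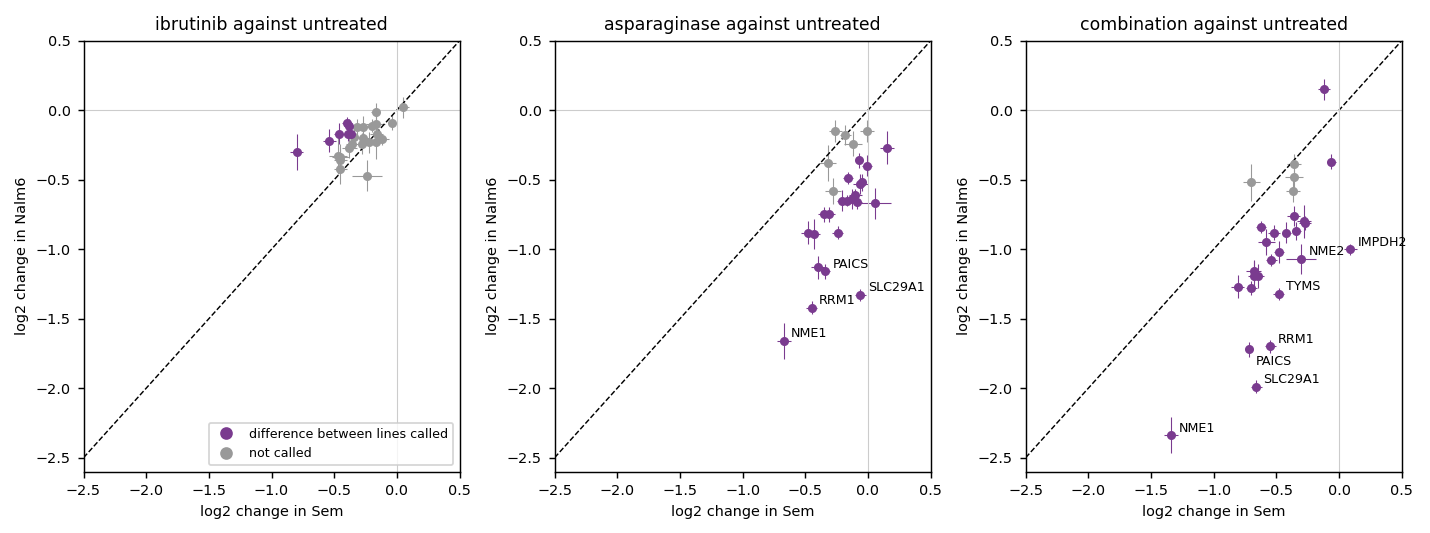
log2 change against untreated in Sem (horizontal) and Nalm6 (vertical) with SE bars, for ibrutinib, asparaginase and the combination; the dashed line marks equal changes, purple a called difference between the lines, and names mark gaps over 0.75. With asparaginase and the combination most points lie below the dashed line, at larger falls in Nalm6, and with ibrutinib the called ones lie above it.

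Other genes of nucleotide metabolism, 65 in a list of salvage kinases, breakdown enzymes, folate enzymes and transporters, were called in both directions. With the combination, 22 of 52 tested were called lower and 13 higher in Sem (median -0.09), and 28 of 47 lower and 8 higher in Nalm6 (median -0.34). Over all genes tested 26.3% were called lower and 26.6% higher in Sem, and 31.3% lower and 32.4% higher in Nalm6, with medians of 0.02; the share of the list called higher in Sem was thus near that of all genes, and the counts of its smaller groups below are to be read against the same shares. Enzymes of breakdown and pool control were called lower in 10 of 18 and higher in 4 in Sem, and lower in 10 of 15 and higher in 2 in Nalm6. SAMHD1, which degrades deoxynucleotides, was at 7.90 ± 0.13 FPKM with the combination, against 19.6 ± 0.305 FPKM untreated, in Sem. DCTPP1, a dCTP pyrophosphatase, fell to 47.4 ± 2.78 against 93.5 ± 8.73 FPKM in Sem and to 32.3 ± 0.822 against 110.0 ± 8.97 FPKM in Nalm6. NT5C2, a nucleotidase that inactivates thiopurine nucleotides, rose to 23.3 ± 1.09 against 17.5 ± 0.555 FPKM in Sem (log2 change 0.40 ± 0.061) and to 39.4 ± 0.273 against 20.6 ± 0.840 FPKM in Nalm6 (0.90 ± 0.040).

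Folate and one-carbon genes, which supply carbons 2 and 8 of the purine ring and the methyl group of thymidylate, were called lower in 4 of 11 and higher in 4 in Sem (median -0.05), and lower in 9 of 11 and higher in 1 in Nalm6 (median -0.74). MTHFD1, the cytosolic trifunctional enzyme, fell to 18.7 ± 0.606 FPKM with the combination, against 29.9 ± 1.11 FPKM untreated, in Sem, and to 11 ± 0.204 against 30 ± 0.651 FPKM in Nalm6. The mitochondrial MTHFD2 rose to 89.5 ± 2.74 against 60.6 ± 2.58 FPKM in Sem but fell to 98.5 ± 9.78 against 115 ± 5.04 FPKM in Nalm6 (adjusted p = 0.011). SHMT2, its mitochondrial neighbour in the pathway, rose to 56.2 ± 1.47 against 38.5 ± 0.877 FPKM in Sem and had 62.2 ± 3.40 against 66.5 ± 2.61 FPKM in Nalm6, which was not called. RRM2B, a p53-inducible small subunit of ribonucleotide reductase, rose to 11.5 ± 0.243 against 9.13 ± 0.66 FPKM in Sem and to 10.6 ± 0.931 against 7.70 ± 0.245 FPKM in Nalm6, where RRM1 and RRM2 fell.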

How the data were processed

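RNA sequencing values of 24 libraries (8 groups of 3) were used. The authors deposited FPKM per gene and the gene length for GRCh38, made with fastp, STAR and featureCounts per the submitters' processing notes, which give no versions. Of 1409640 deposited values, 299165 (21.22%), all those of 1 or more, had lost the decimal point; the 206596 intact values were whole multiples of 1 read per library (largest deviation 8e-13 reads). Where the point belonged was chosen over the 12 libraries of a line among those giving whole reads, with Student t priors on replicate spread and drug effects; every member value had a posterior of 1.0. Identifiers, starts and ends of all 58735 genes matched GENCODE release 29. Each library's FPKM also carried a factor of 0.919 to 1.09 beyond its read total, whose origin is not given in the sources used here. The main test used the restored FPKM; recovered reads were tested with limma-voom as an alternative.

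Genes with at least 1 FPKM in at least 3 libraries were tested with limma-trend (limma 3.58.1, R 4.3.3) on log2(FPKM + 1), which understates the change of low genes: 12 libraries per line for 6 comparisons, and all 24 for the 4 differences between lines. The test and the restoration were also run on simulated data with simpler settings than the real data. The outcome is not given here, and no result rests on it. Alternatives were the pseudocount, the filter, 2 rescalings, limma-voom on recovered reads, a replicate block, GC content and length correction, the priors, both lines in 1 fit, and leaving out each library. Leaving out both libraries that stood apart was added after seeing the data. Library values are given for the members with the largest and the smallest change with the combination in either line within each role, the largest departures from additivity and the largest differences between lines. The members and lists were chosen with earlier results of these data known. The protein sequences of the paired enzymes were not analysed here.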

Additional observations from a re-analysis of the deposited data

Results flagged for a closer look

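Among the genes given with all library values, effects that differed between the lines by the direct test, change in Sem minus change in Nalm6 on the log2 scale, were set aside for a closer look, apart from PRPS2 and CTPS2, each of which 1 line lacks. For ibrutinib the differences were -0.50 for NME1, -0.32 for HPRT1, -0.27 for SLC29A1 and -0.20 for CTPS1. Their calls were uneven: that of HPRT1 was lost without 12 of the 24 libraries in turn (adjusted p 0.017 to 0.11) and that of NME1 without 4 of 24 (0.0066 to 0.074). For asparaginase the differences were 1.27 for SLC29A1, 1.00 for NME1, 0.97 for RRM1, 0.82 for PAICS, 0.73 for HPRT1, 0.51 for IMPDH2, 0.48 for CTPS1 and 0.29 for CMPK1. For the combination they were 1.34 for SLC29A1, 1.15 for RRM1, 1.09 for IMPDH2, 1.00 for PAICS, 1.00 for NME1, 0.53 for CTPS1, 0.47 for HPRT1, 0.32 for CMPK1 and -0.28 for DCK. The sign of the difference thus turned between ibrutinib and asparaginase for NME1, HPRT1, SLC29A1 and CTPS1, whose changes within each line share the untreated libraries.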

How the results depend on the processing

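Of the counts of members called, 350 stayed within 1.5 times of their reported value over the alternatives and 40 did not. The count of 10 for ibrutinib in Nalm6 was 5 with no filter, 2 by TPM, 1 by quantile normalization and 6 by limma-voom, and 3 to 13 when each library was left out in turn. The departure from additivity in Nalm6 (7) was 11 by limma-voom, 11 after GC content and length correction, 11 with both lines in 1 fit, 4 with the replicate block, and 3 to 7 without 1 library. In Sem (0) it was 1 by TPM, 5 by limma-voom, 1 with the replicate block, 1 with both lines in 1 fit, and 0 to 2 without 1 library. The line difference for ibrutinib (8) was 4 with no filter, 5 by TPM, 4 by quantile normalization and 3 to 11 without 1 library. Combination against ibrutinib in Sem (18) was 11 to 19 without 1 library. Leaving out 1 library gave 22 to 26 (Nalm6 asparaginase), 27 to 27 (Nalm6 combination), 16 to 20 and 25 to 26 (Nalm6 combination against asparaginase and ibrutinib), 22 to 24, 15 to 18 and 25 to 26 (Sem ibrutinib, asparaginase and combination), 21 to 25 (Sem combination against asparaginase), and 22 to 24, 24 to 26 and 20 to 25 (line differences for asparaginase, the combination and untreated cells). The replicate block moved no other count by over 1.5 times. In Sem, the deviations of same-numbered libraries correlated with r from -0.027 to 0.103, and those of differently numbered ones from -0.111 to 0.09. For Nalm6 the same-numbered pairs spanned -0.196 to 0.378, against -0.265 to 0.31 for the rest. Its top value joined asparaginase library 1 with combination library 1, which both stood apart. Whether same-numbered libraries share a culture or batch was not tested. For single members, 8547 results kept their status as called or not called, 277 lost and 120 gained a call. Genes called in neither fit count among the 8547 even where their direction changed. A further 4 reversed direction with a call in either fit, all in Sem by quantile normalization. They were CMPK1 with ibrutinib (0.11), RRM2 with asparaginase (0.11), and DCK (0.10) and CMPK1 (0.16) with the combination. The causes were not tested. Beside the TPM splits above, limma-voom gave over all genes 1163 higher and 643 lower with ibrutinib, 4944 and 2834 with asparaginase and 5412 and 3312 with the combination in Nalm6, and 2399 and 1775 with asparaginase in Sem; quantile normalization gave 472 and 382 with ibrutinib in Nalm6. For the departure, limma-voom gave 321 above and 677 below in Nalm6 and 200 and 451 in Sem, and quantile normalization 93 and 156 in Sem; for the line differences limma-voom gave 1898 above and 2707 below with asparaginase and 2313 and 3076 with the combination. Depth sets the bounds given for PRPS2 and CTPS2, and 3 libraries per group limit the rest.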
